A study of Mus musculus with 20 samples.

Results

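The MHC class I presentation genes described here are the 10 genes H2-K1, H2-D1, B2m, Tap1, Tap2, Tapbp, Psmb8, Psmb9, Psmb10 and Nlrc5, chosen by name and found as 10 rows of the 21509 protein-coding genes in each of the 2 abundance tables. RNA was measured by RNA-seq in DC2 cells, an immortalised mouse line labelled as principal cells of the distal caput epididymis. In the flow experiment, 6 libraries came from cells exposed for 3 h to flowing medium at a shear of 1 dyn/cm2 (flow) and 6 from cells kept without flow (static), all kept in low-serum medium beforehand. In the siRNA experiment, 4 libraries came from cells given ift88 siRNA, which targets a transport protein that primary cilia need, and 4 from cells given control (scrambled) siRNA. Both siRNA groups were under flow according to the study's methods, which the labels do not state. All libraries come from 1 cell line, and no label says which came from separate cultures, so p-values measure the spread between these libraries only. The labels of 1 library conflict, its title naming flow and its treatment static, and the title was followed (flow replicate 6). Levels are TPM (transcript abundances corrected for length and scaled to the same total in each library), and no read totals come with them, so the depth behind each value is unknown.

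Class I molecules are a heavy chain, encoded in the mouse by H2-K1 and H2-D1, bound to the invariant light chain beta-2-microglobulin (B2m), and they carry peptides from proteins made inside the cell to its surface, where CD8 T cells inspect them. The peptides are cut by the proteasome, in which the interferon-inducible subunits Psmb8, Psmb9 and Psmb10 can replace the constitutive catalytic subunits. They are pumped into the endoplasmic reticulum by the transporter Tap1 and Tap2 and loaded with the help of tapasin (Tapbp). Nlrc5 is the transactivator that drives the promoters of this pathway, mainly after interferon. Sperm antigens first appear at puberty, so presentation of antigens in the epididymis is of interest for tolerance.

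Of the 10 genes, 7 lie in the MHC on chromosome 17 (GENCODE M21, GRCm38). Tapbp (chr17:33915899-33929292, + strand) and H2-K1 (chr17:33996017-34000347, - strand) come first in coordinate order. Psmb9 (chr17:34181987-34187764, - strand), Tap1 (chr17:34187553-34197225, + strand), Psmb8 (chr17:34197721-34201454, + strand) and Tap2 (chr17:34203527-34216321, + strand) form a cluster behind them, followed by H2-D1 (chr17:35262730-35267499, + strand). B2m is on chromosome 2 (chr2:122147686-122153083, + strand). Nlrc5 (chr8:94434356-94527272, + strand) and Psmb10 (chr8:105935735-105938444, - strand) are both on chromosome 8. The start sites of Psmb9 and Tap1 in RefSeq (GRCm38.p6) are 226 bases apart and face away from each other.

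The promoters of the 3 classical chain genes are shown because class I genes are controlled through elements they have in common, and the values of H2-D1 and H2-K1 are set against each other further on. RefSeq windows of 250 bases before to 50 after the start site (GRCm38.p6) were found for 8 of the 10 genes, all but Tap2 and Nlrc5. Both strands were searched for the letters GGGATTCCC, a form of the NF-kB site, and for TTCNNNGAA, the STAT palindrome. They were also searched for GAAANNGAA, only 1 form of the core bound by interferon regulatory factors. The last search was for TGACG followed 12 to 25 bases later by ATTGG, the cyclic AMP response element and inverted CCAAT box of the class I enhancer. Capitals in the stretches below mark the matches.
H2-K1 (chr17:34000349-34000467, - strand): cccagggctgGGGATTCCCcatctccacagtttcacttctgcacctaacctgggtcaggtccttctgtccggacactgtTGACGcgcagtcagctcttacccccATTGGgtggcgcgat
H2-D1 (chr17:35262914-35263032, + strand): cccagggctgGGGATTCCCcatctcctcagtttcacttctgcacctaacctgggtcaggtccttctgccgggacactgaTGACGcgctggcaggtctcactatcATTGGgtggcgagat
B2m (chr2:122147538-122147648, + strand): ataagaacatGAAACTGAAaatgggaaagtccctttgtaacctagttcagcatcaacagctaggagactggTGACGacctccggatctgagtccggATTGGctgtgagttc
The H2-K1 and H2-D1 stretches are identical at 107 of 119 positions (89.9%, compared base by base without gaps). The H2-D1 stretch lies before the RefSeq start site but inside the gene as GENCODE M21 draws it. Of all 32851 windows, 0.353% hold GGGATTCCC, among them H2-K1 and H2-D1, and 0.554% hold the TGACG and ATTGG pair, among them H2-K1, H2-D1 and B2m. The interferon regulatory factor core is in 8.56% of windows and, of the 8 genes, in B2m alone, and the STAT palindrome is in 8.30% and in Psmb8 alone. These are matches of letters in a window and were not tested as binding sites.

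The 10 genes fell into 3 tiers of abundance in the flow experiment, with the chains and tapasin high and Psmb10 in the middle. The peptide transporter, the other inducible proteasome subunits and the transactivator were low. The siRNA experiment was alike, except that H2-K1 lay nearer to Psmb10 than to H2-D1 (42.5, 25.7 and 105 TPM in control siRNA cells). B2m was the highest in every group, at 330 ± 36.5 TPM (SD, n = 6) in static cells and 292 ± 36.3 TPM (n = 4) in control siRNA cells, above 98.1% and 97.0% of all genes. Tapbp followed at 124 ± 21.8 TPM in static cells and 199.7 ± 8.77 TPM in control siRNA cells. H2-D1 and H2-K1 were at 82.3 ± 25.8 and 78.1 ± 21.7 TPM in static cells and could not be ordered there, since H2-D1 was the higher in 3 of 6 libraries. In control siRNA cells H2-D1 stood at 105 ± 14.5 TPM and H2-K1 at 42.5 ± 2.43 TPM, with no overlap of their ranges. The ratio of H2-D1 to H2-K1 within a library was between 0.778 and 1.39 in static cells and between 1.96 and 3.05 in control siRNA cells. The tables were normalised separately, so this gap between experiments was not tested. Reads cannot always be told apart between the heavy chains, since 19.7% of the 31-base words of the H2-K1 coding transcripts (GENCODE M21) also occur in other genes, 14.3% in H2-D1, and 26.0% of the H2-D1 words occur elsewhere. No word of B2m, Psmb8, Psmb10 or Nlrc5 was shared.

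Among the inducible proteasome subunits only Psmb10 was plainly present, at 24.9 ± 3.73 TPM in static and 25.7 ± 2.84 TPM in control siRNA cells. Psmb8 was at 0.630 ± 0.325 and 0.249 ± 0.287 TPM and Psmb9 at 1.63 ± 0.607 and 0.505 ± 0.112 TPM in the same groups. Set against the constitutive subunit each one replaces, the contrast was plain. Psmb8 was between 0 and 0.834% of Psmb5 over all libraries, and Psmb9 between 0.0107% and 0.777% of Psmb6. Psmb10 reached 3.64% to 7.94% of Psmb7 in the flow experiment and 12.4% to 16.7% in the siRNA experiment. The transporter genes Tap1 and Tap2 were at 3.55 ± 1.21 and 2.68 ± 1.123 TPM in static cells, a median of 2.83% and 2.06% of the TPM of Tapbp in the same library, and the ranges of Tap1 and Tap2 overlapped in every group. Tap1 and Psmb9 overlap on opposite strands, with 6.11% of the Tap1 words and 10.8% of the Psmb9 words shared, so their low values are the less certain. Nlrc5 was at most 0.345 TPM in any library and listed at 0 in 4 of 20.

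**Figure D1:**
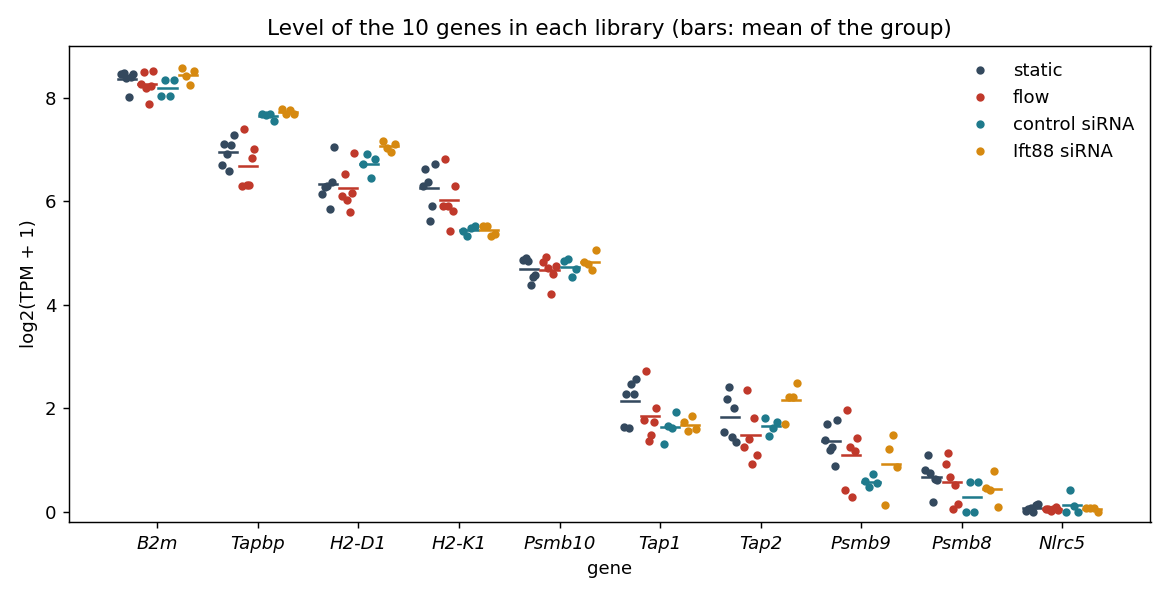
Level of the 10 genes as log2(TPM + 1), vertical axis, in every library of the 4 groups, with points for libraries and bars for group means. B2m is highest and Nlrc5 is near 0 throughout, and the H2-K1 points of the siRNA experiment lie below its H2-D1 points.

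Interferon genes themselves were not detected beyond traces, with Ifng, Ifna4, Ifnl2 and Ifnl3 listed at 0 in all 20 libraries and Ifnb1 at 0.372 TPM at most. The label of the line was checked against 8 epithelial and principal cell markers. A mean of at least 1 TPM was reached by 3 of the 8 in flow, static and control siRNA cells (among them Krt18 and Krt19) and by 4 in ift88 siRNA cells (also Cdh1), while the principal cell marker Aqp9 stayed at or under 0.413 TPM and Epcam was listed at 0 in all control siRNA libraries. Of 7 fibroblast and endothelial markers only Dcn averaged 1 TPM or more, in static cells alone (1.27 TPM), and of 4 clear cell markers 0 did in any group. Of 10 leukocyte markers only the lysosomal Cd68 and Cd74 averaged 1 TPM or more in any group. Cd3e was listed at 0 in every library and Ptprc reached 0.0878 TPM at most, while the macrophage receptor Csf1r was above 0 in all 20 libraries, with means from 0.451 to 0.621 TPM and its highest values in flow replicate 5 (1.34 TPM) and static replicate 6 (1.23 TPM). The summed level of the 10 leukocyte markers was 12.03 to 44.5 TPM in flow and 14.2 to 69.4 in static libraries. It was 89.4 to 99.1 in ift88 siRNA and 91.9 to 101 in control siRNA libraries. Cd68 made up most of it. In bulk RNA, fewer cells of a type and less RNA per cell cannot be told apart.

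Whether shear stress changes class I presentation was asked by comparing flow with static libraries. Among the 10 genes none was called, and the means of the 8 that passed the filter of a mean of at least 1 TPM were all lower under flow, by a median of -0.24 on the log2(TPM + 1) scale against -0.03 over all 11388 genes tested. The 2 genes under the filter were Psmb8 and Nlrc5. The test was limma over all genes with Benjamini-Hochberg adjustment, and a gene was called at an adjusted p under 0.05 and a change over 1.5-fold. Over all genes tested, 0.105% were called higher and 0.0% lower. At an unadjusted p under 0.05, 1.79% of all genes and 0 of the 8 were lower. Leaving out any 1 library did not bring a call to any of the 8 genes, but it moved their values. Without flow replicate 2, H2-K1 was at -0.39, Tap1 at -0.47, Tap2 at -0.52 and Tapbp at -0.39, and 3 of the 8 (Tap1, Tap2 and Tapbp) were lower at an unadjusted p under 0.05, against 8.54% of all genes. Without flow replicate 4, H2-K1 was at -0.11, B2m at -0.03 and Psmb9 at -0.12, while 2 of the 8 turned higher, Psmb10 (0.07) and H2-D1 (0.02). With library weights, Tap2 was at -0.78 (limma adjusted p = 0.0725), Psmb9 at -0.54, H2-K1 at -0.47 and Tapbp at -0.47, and these 4 of the 8 were lower at an unadjusted p under 0.05, against 15.4% of all genes.

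For the classical chains, H2-K1 ranged from 41.7 to 111 TPM (median 59.0) under flow and from 47.8 to 104 TPM (median 79.8) in static libraries. The groups overlapped over nearly their whole range, with a log2 fold change of -0.23 (95% interval -0.71 to 0.25, limma adjusted p = 0.998). H2-D1 ranged from 54.3 to 121 TPM (median 69.3) under flow and from 56.9 to 132 TPM (median 76.8) in static cells. Its highest library in each group was replicate 6, which in both groups also had the most Cd68 (39.6 TPM under flow, 64.0 in static cells) and the most genes above 0, and the part of this in the H2-D1 values was not tested. The log2 fold change of H2-D1 was -0.07 (-0.51 to 0.36), and -0.06 (-0.35 to 0.22) without both libraries numbered 6. With single libraries left out it ran from -0.21 to 0.07, with the sign turned in 2 of 12 fits. B2m, the light chain, ranged from 235 to 365 TPM (median 302) under flow and from 258 to 353 TPM (median 343) in static cells. Its log2 fold change was -0.10 (-0.33 to 0.13).

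In the transport and loading group, tapasin (Tapbp) ranged from 77.2 to 166 TPM (median 95.5) under flow and from 95.2 to 153 TPM (median 127) in static cells. Flow replicates 1, 3 and 4 lay under every static library, while flow replicate 2 lay above them all. Its log2 fold change was -0.26 (-0.66 to 0.14, limma adjusted p = 0.998). Tap2 ranged from 0.904 to 4.09 TPM (median 1.52) under flow and from 1.54 to 4.32 TPM (median 2.48) in static cells, and its log2 fold change was -0.35 (-0.89 to 0.19). Tap1 ranged from 1.58 to 5.61 TPM (median 2.37) under flow and from 2.07 to 4.92 TPM (median 3.83) in static cells. The log2 fold change of Tap1 was -0.29 (-0.80 to 0.21), with 0.11 in replicates 1 to 3 alone and -0.70 in replicates 4 to 6 alone (limma adjusted p = 0.400 in the latter, and 0.0938 to 1.00 over its alternatives), a difference between the blocks that was not tested.

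The inducible proteasome subunits overlapped fully between the groups. Psmb10 ranged from 17.4 to 29.2 TPM (median 25.4) under flow and from 19.96 to 28.8 TPM (median 25.2) in static cells, and its log2 fold change was -0.02 (-0.29 to 0.25). Psmb9 ranged from 0.227 to 2.91 TPM (median 1.32) and from 0.850 to 2.44 TPM (median 1.495), a log2 fold change of -0.27 (-0.84 to 0.29). For the genes under the filter a two-sided exact permutation test of log2(TPM + 1) was used, which at this size cannot go below p = 0.00216. Psmb8 gave p = 0.634 and Nlrc5 p = 0.468 (exact permutation tests, 5 such tests in all, none adjusted).

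**Figure D2:**
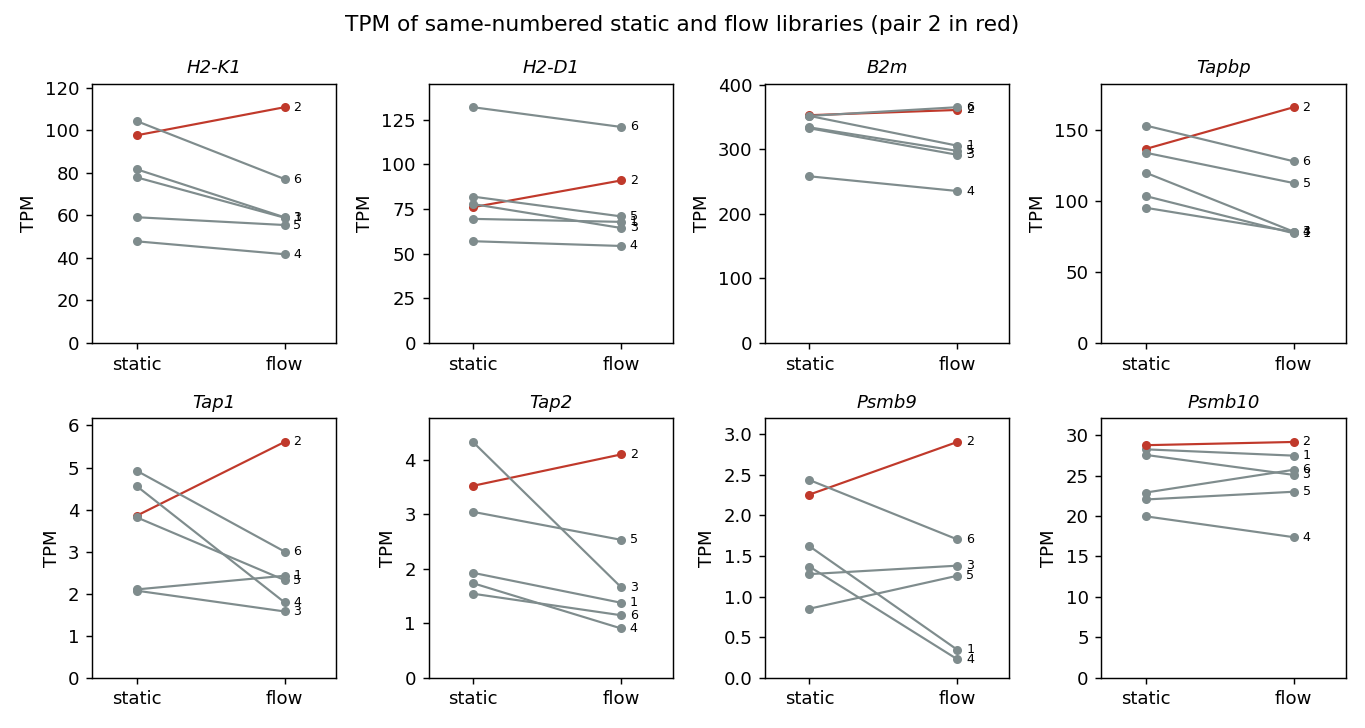
TPM (vertical axis, from 0) of the 8 tested genes in static and flow libraries, with a line joining libraries of the same replicate number, given beside the flow point. Pair 2, in red, rises or stays level for each of the 8 genes, and most other lines fall.

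Libraries of the same number deviated together, except that flow replicate 3 was most like static replicate 1. No source names pairs, and the values were also read within pairs inferred from the data by number. In pair 2 all 8 genes were higher under flow, by a median of 0.22, whereas in the other pairs between 6 and 8 of the 8 were lower, with medians from -0.26 to -0.18. Over all tested genes the medians of the 6 pairs lay between -0.09 and 0.09, and between 36.0% and 67.6% of genes were lower. H2-K1, H2-D1, Tap2 and Tapbp were lower under flow in 5 of 6 pairs, and pair 2 was the exception for each. Over all genes, 22.8% were lower in at least 5 of 6 pairs, and 12.8% were lower in every pair but pair 2 and higher in that one. B2m and Tap1 were lower in 4 of 6 pairs and Psmb9 and Psmb10 in 3 of 6.

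**Figure D3:**
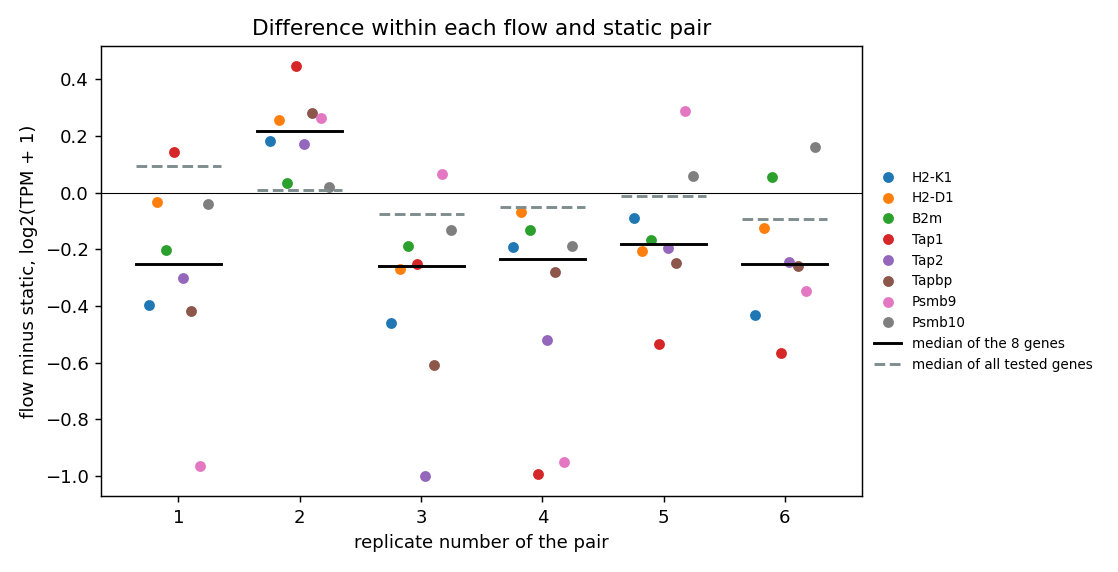
Difference of log2(TPM + 1), flow minus static, within each of the 6 pairs (horizontal axis, replicate number) for the 8 tested genes, with solid lines for their median and dashed lines for the median of all tested genes. The median of the 8 genes is 0.22 in pair 2 and between -0.26 and -0.18 in the other pairs.

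With the replicate number as a block, none of the 8 genes was called, although calls over the whole table went from 12 to 68, and 3 of the 8 were lower at an unadjusted p under 0.05, against 7.17% of all genes. These were H2-K1 (limma adjusted p = 0.339), Tapbp (adjusted p = 0.347) and Tap2 (adjusted p = 0.397). A further fit left out both libraries numbered 2 and kept the block, and was chosen after the values of pair 2 were known. In it 5.44% of all genes were lower at an adjusted p under 0.05, as were 2 of the 8. Tapbp gave a log2 fold change of -0.36 (95% interval -0.50 to -0.23, limma adjusted p = 0.00602, range over all its alternatives 0.00602 to 1.00) and was lower in all 5 pairs kept. H2-K1 gave -0.31 (-0.46 to -0.17, adjusted p = 0.0156, range 0.0156 to 1.00) and was also lower in all 5. The pair left out was the one in which both genes were higher, and 14.9% of all genes were lower in each of those 5 pairs. Both changes were under 1.5-fold, so neither was called. Tap2 (-0.45, adjusted p = 0.0666), Tap1 (-0.44, 0.0938), B2m (-0.13, 0.132) and H2-D1 (-0.14, 0.130) did not pass in that fit, nor did Psmb9 (-0.38, 0.243) and Psmb10 (-0.03, 0.847).

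In the rest of the pathway, no gene of the lists was called between flow and static. Of 8 other class I heavy chain genes tested, 7 had a lower mean under flow (median log2 fold change -0.12), and in the fit without pair 2 and with the block 2 of them passed the adjusted p, Fcgrt, the neonatal Fc receptor (-0.41, limma adjusted p = 0.00579), and H2-Q4, a non-classical chain (-0.47, 0.00632). The 20 constitutive proteasome and regulator genes had a median of 0.04 and the 9 other loading and trimming genes a median of 0.03, with 0 of either list at an unadjusted p under 0.05 in the fit without the block. Among 18 regulators tested, the NF-kB subunit Rela was higher at an unadjusted p under 0.05 (0.18, limma adjusted p = 0.998), and 14 of the 18 had a lower mean. Without pair 2 and with the block, Rela (0.21, adjusted p = 0.0443) and Stat2, a signal transducer downstream of interferon receptors (-0.33, 0.0377), passed in opposite directions. Over all genes in that fit, 3.24% were higher and 5.44% lower at an adjusted p under 0.05, so 1 of 18 each way stood near both shares. With the block and all pairs, 4 of the 18 were lower and 1 higher at an unadjusted p under 0.05 by limma. Of all genes 7.17% were lower and 3.94% higher at that level. The 19 interferon targets tested had a median of -0.04 in the fit of all libraries without the block. With the block 3 of the 19 were higher at an unadjusted p under 0.05 and 0 lower, against 3.94% of all genes higher. Without pair 2 and with the block, 2 of the 19 passed the adjusted p, both higher, namely the antiviral Rsad2 (0.56, limma adjusted p = 0.0122) and Isg15 (0.26, 0.0197), the opposite direction to that of H2-K1 and Tapbp in the same fit. H2-Q4, Rela and Rsad2 were named after their values were seen.

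Whether loss of Ift88 alters the pathway was asked by comparing ift88 siRNA with control siRNA libraries. Of the 10 genes none was called, while H2-D1, B2m and Tap2 had higher values at an unadjusted p under 0.05 and H2-K1 stood level. Ift88 itself was at 1.30 ± 0.326 TPM (SD, n = 4) in the silenced libraries, of which the highest reached 1.71, and 4.14 ± 0.0541 TPM in the controls, of which the lowest was at 4.08. All but Psmb8, Psmb9 and Nlrc5 passed the filter, 7 genes with a median log2 fold change of 0.10 against 0.02 over all 11209 genes tested. Over all genes tested, 0.152% were called higher and 0.0714% lower. The 3 of 7 genes that were higher at an unadjusted p under 0.05 stand beside 9.02% of all genes. More genes were above 0 in the ift88 siRNA libraries (15713 to 16682) than in the control siRNA libraries (15292 to 15382), and the part of this in the values below was not tested.

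H2-D1 was at 142, 130, 123 and 136 TPM in ift88 siRNA replicates 1 to 4 and at 104, 120.0, 86.2 and 112 TPM in control siRNA replicates 1 to 4. The groups did not overlap, the lowest ift88 siRNA library lying just above the highest control, which was so in this direction for 5.79% of all genes tested. The log2 fold change was 0.34 (95% interval 0.14 to 0.54, limma adjusted p = 0.128, and 0.0439 to 0.281 over its alternatives). H2-K1, the other heavy chain, was at 45.1, 45.2, 39.3 and 40.3 TPM with ift88 siRNA and at 42.2, 39.3, 43.9 and 44.8 TPM with control siRNA. Its groups overlapped throughout, with a log2 fold change of -0.00 (-0.17 to 0.16). The ratio of H2-D1 to H2-K1 was between 2.87 and 3.38 in ift88 siRNA and between 1.96 and 3.05 in control siRNA libraries, which overlap, and a difference between the responses of the heavy chains was not tested. B2m was at 379, 339, 303 and 364 TPM with ift88 siRNA and at 261, 324, 259.7 and 323 TPM with control siRNA. Of the 4 ift88 siRNA libraries 3 lay above every control, a log2 fold change of 0.25 (0.05 to 0.45, limma adjusted p = 0.253).

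Tap2, which forms the peptide pump together with Tap1, was at 2.24, 3.68, 3.63 and 4.64 TPM with ift88 siRNA and at 2.50, 1.75, 2.08 and 2.32 TPM with control siRNA. Replicates 2 to 4 with ift88 siRNA lay above all controls and replicate 1 among them, giving a log2 fold change of 0.50 (0.14 to 0.87, limma adjusted p = 0.215). Tap1 was at 2.31, 1.95, 2.59 and 2.02 TPM with ift88 siRNA and at 1.49, 2.15, 2.07 and 2.82 TPM with control siRNA, with a log2 fold change of 0.05 (-0.28 to 0.38). Tapbp ranged from 204 to 220 TPM with ift88 siRNA and from 187 to 205 TPM with control siRNA (0.08, -0.04 to 0.20), and Psmb10 from 24.4 to 32.3 TPM and from 22.2 to 28.4 TPM (0.10, -0.12 to 0.32). Psmb9 was at 0.101, 1.31, 1.81 and 0.833 TPM with ift88 siRNA and between 0.389 and 0.656 TPM with control siRNA. In two-sided exact permutation tests, which here cannot go below p = 0.0286, Psmb9 gave p = 0.314, Psmb8 p = 0.600 and Nlrc5 p = 0.714.

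**Figure D4:**
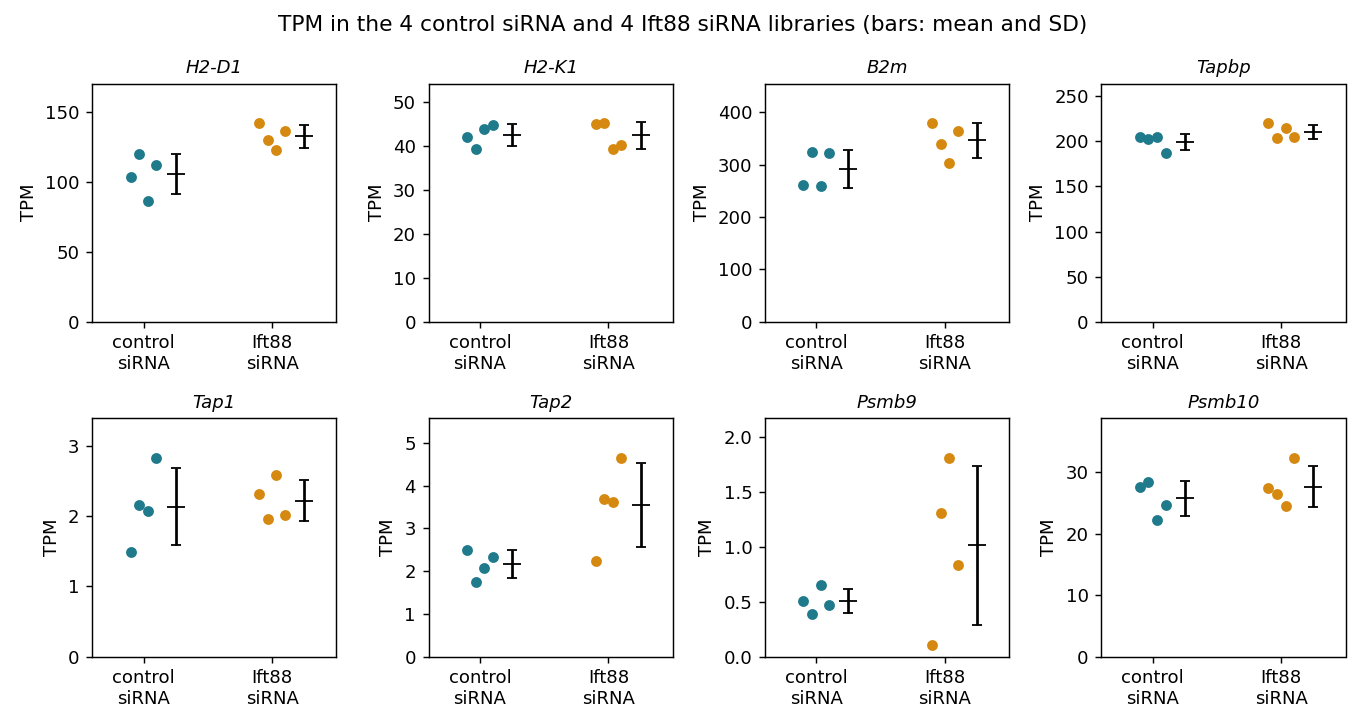
TPM (vertical axis, from 0) of 8 of the genes in the 4 control siRNA and 4 ift88 siRNA libraries, with points for libraries and bars for mean and SD. The H2-D1 groups do not overlap, at 86.2 to 120.0 and 123 to 142 TPM, and the H2-K1 groups do.

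Around these genes, the interferon targets rose with ift88 siRNA in part. Of 20 listed genes 14 were tested, 4 were called higher and 0 lower. All 14 had a higher mean, with a median log2 fold change of 0.48 against 0.02 over all genes. The list was chosen with earlier results of these data known, so these counts are not independent of those results. The number called was 1 without the filter (Ifit1), 2 with a mean of at least 5 TPM and 2 to 4 when single libraries were left out, of which Ifit1 and Isg15 were called each time. Over all genes tested, 0.152% were called higher, and 0.455% were higher at an adjusted p under 0.05 without the fold threshold. The 4 called were Ifit1, which binds foreign RNA ends (0.97, standard error 0.11, limma adjusted p = 0.00206), the ubiquitin-like modifier Isg15 (0.79, 0.11, adjusted p = 0.00855), Oasl1 (1.01, 0.17, adjusted p = 0.0238) and the guanylate-binding protein Gbp7 (0.77, 0.13, adjusted p = 0.0241). None of the other lists held a called gene. Over all genes tested, 9.02% were higher at an unadjusted p under 0.05 by limma, and 550 of 11209 were lower. Of 18 class I regulators, 4 were higher at that level and 0 lower. Among them were Stat2 (0.45, limma adjusted p = 0.135), Irf7 (0.47, 0.220) and Nfyc, a subunit of the factor that binds the CCAAT box (0.19, 0.146). The means of 9 of the 18 were higher and of 9 lower, with a median of 0.004 against 0.02 over all genes. In the loading list 2 of 9 genes were higher at that level, the chaperones Pdia3 (0.22, limma adjusted p = 0.187) and Calr (0.20, 0.222), both of the peptide-loading complex. Among the other heavy chain genes 2 of 8 were higher at that level, Mr1 (0.34, 0.234), which presents vitamin B metabolites, and Hfe (0.43, 0.247). The proteasome list had the activator subunit Psme1 higher (0.26, limma adjusted p = 0.341) and the assembly factor Pomp lower (-0.13, 0.306) at that level, with a median of 0.00. This was 1 of 20 each way, no more than about the shares over all genes. Of 6 interferon and receptor genes and 3 class II genes tested, 0 were at an unadjusted p under 0.05 by limma.

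**Figure D5:**
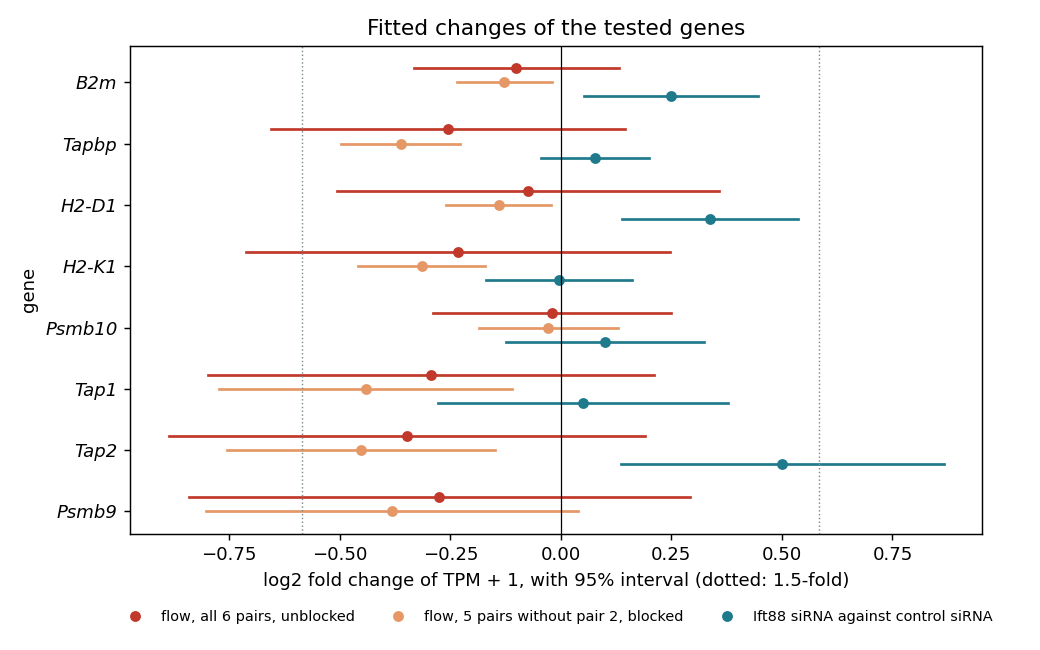
Log2 fold change of TPM + 1 (horizontal axis, points) with 95% intervals (lines) for flow against static in all libraries, for flow against static without pair 2 and with the replicate block, and for ift88 siRNA against control siRNA. The unblocked flow intervals all include 0, and the H2-D1, B2m and Tap2 intervals of the siRNA comparison lie above 0 without adjustment for the number of genes.

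The pattern of the pathway over libraries was taken as the mean over the tested genes of log2(TPM + 1) centred per gene. Over the 12 flow and static libraries it ran from -0.60 in flow replicate 4 to 0.51 in flow replicate 2, with Tapbp (Pearson r = 0.932) and H2-K1 (r = 0.930) nearest to it among the 8 genes and Psmb10 (r = 0.625) farthest. The other genes most like it were Fuom (r = 0.955), Atp8b3 (0.942), Coro6 (0.935), the interferon signalling factor Irf9 (0.934) and H2-Q4 (0.928). Over the 8 siRNA libraries, H2-D1 (r = 0.924) and B2m (r = 0.884) were nearest to the mean of the 7 genes and H2-K1 (r = -0.06) farthest, and the other genes most like it were Cyba (0.985), Ndufs3 (0.979), Bckdha (0.978), Gins4 (0.976) and Plin2 (0.963). These correlations describe libraries that share their treatments, and the members are part of the mean they are set against.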

How the data were processed

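RNA-seq of DC2 cells was analysed in 2 experiments, 6 flow against 6 static libraries and 4 ift88 siRNA against 4 control siRNA libraries. The authors deposited TPM for 21509 protein-coding genes, 1 table per experiment, each library summing to 1000000. The study's methods name Trimmomatic for trimming, kallisto with Ensembl 110 for assigning reads and tximport for summing transcripts to genes. The submitters' processing notes name fastp 0.20.0, FastQC 0.11.8, MultiQC 1.8 and kallisto 0.46.2. TPM hold no counts, so no count test was run and depths stay unknown. The values were moved to log2(TPM + 1) and compared by limma 3.58.1 (R 4.3.3, intensity trend, genes averaging 1 TPM or more). The fit was tried beforehand on simulated libraries drawn independently of each other, which does not cover libraries that deviate together. Fold changes on this scale understate those of low genes. Same-numbered flow and static libraries deviated together (correlations over genes of 0.294, 0.463, 0.425, 0.468, 0.662 and 0.600 for numbers 1 to 6). Flow replicate 3, however, correlated most with static replicate 1. The numbers were taken as pairs from the data, since no source names any. Static Krt18 was 28.4 to 30.2 TPM in replicates 1 to 3 and 63.0 to 71.8 TPM in replicates 4 to 6. The part of such blocks in these correlations was not tested. The genes named are the 10, up to 4 per other list by the smallest limma p over both comparisons, and the 5 most like the mean pattern. The members and lists were chosen with earlier results of these data known. The values of 2 listed genes are not reported here. Positions, RefSeq windows and shared 31-base words come from GRCm38 tables, an older build than the authors' annotation, and no coordinate was converted.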

Additional observations from a re-analysis of the deposited data

Results flagged for a closer look

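Within groups, 5 of 40 sets of library values had a highest or lowest library set apart from the others by Dixon's test at its 95% critical value, where chance gives about 1 in 20. These were H2-D1 in static replicate 6 (132 TPM, above the others), B2m in static replicate 4 (258 TPM, below), Tap1 in flow replicate 2 (5.61 TPM, above), Tapbp in control siRNA replicate 4 (187 TPM, below) and Nlrc5 in ift88 siRNA replicate 4 (listed at 0 TPM, with the other 3 libraries between 0.0508 and 0.0583 TPM).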

How the results depend on the processing

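No alternative brought a call to any of the 8 genes tested under flow or the 7 tested with ift88 siRNA. The genes under the filter could be fitted only without it, and were not called there. Of 189 log2 fold changes of the 8 genes under flow, 180 kept their sign. The exceptions were Psmb10 (0.00632 with median-of-ratios scaling, 0.00999 with replicates 4 to 6 only, and -0.0787 to 0.0725 when single libraries were left out), Tap1 with replicates 1 to 3 only (0.112) and H2-D1 when single libraries were left out (-0.209 to 0.0703, positive without flow replicate 4 at 0.0193 and without static replicate 6). Psmb10 was also positive without flow replicate 4 and without static replicates 1 (0.0174), 2 (0.0225) and 3 (0.0106). Of 96 values with ift88 siRNA, 89 kept their sign. H2-K1 was 0.0388 with library weights and -0.0400 to 0.0322 with single libraries left out (positive without ift88 siRNA replicates 3 and 4 and without control siRNA replicates 3 and 4), and Tap1 was -0.0542 to 0.152 (negative without ift88 siRNA replicate 3 and without control siRNA replicate 1). The number of all genes called between flow and static, 12, was 2 without the filter, 28 with scaling, 86 with library weights, 68 with the replicate block, 0 with flow replicate 6 counted as static (64 higher and 117 lower at an unadjusted p under 0.05 by limma), 5 with replicates 1 to 3 only, 56 with replicates 4 to 6 only and 5 to 87 with single libraries left out (87 without flow replicate 2). In fits added after the data were seen it was 61 without both libraries numbered 2, 193 with the block as well and 4 without both numbered 6. With ift88 siRNA it was 25, and 6 without the filter, 48 with library weights, 71 without the fold threshold and 11 to 23 with single libraries left out. The ift88 and control siRNA numbers correlated by 0.0464, 0.00276, 0.259 and 0.176 and were not taken as pairs. With that replicate block 44 genes were called, and H2-D1 had a limma adjusted p of 0.0439 at 0.34, under 1.5-fold. The cause of these changes was not tested.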

Other observations

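H2-Q4, a non-classical class I heavy chain, averaged 13.8 ± 4.97 TPM (SD, n = 6) in static cells and 0.611 ± 0.396 TPM (n = 4) in control siRNA cells, a gap between separately normalised tables that was not tested. H2-K1 shares 8.45% of its 31-base words with H2-Q4.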
